A study of Rattus norvegicus with 19 samples.

Results

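Mast cells sorted from the hypothalamus of newborn rats were compared with mast cells sorted from the skin at the same age, postnatal day 2 (PN2). The comparison was chosen by tissue and age and takes 7 of the 19 RNA-seq libraries in the series, 2 from hypothalamus and 5 from skin, which are all the libraries of these tissues at that age analysed here. Both groups are wild type (WT) pups perfused with PBS under anesthesia, and the labels set them apart by tissue alone. The labels mention 3 to 5 replicates per condition, and 2 of hypothalamus at PN2 were analysed here. Each library holds cells pooled from 6 animals, so single animals cannot be separated, and tests rest on the variation from pool to pool. Immune cells from a 37% Percoll step were sorted for live singlets that carried FcεRI and much CD45 and lacked CD11b, at 1000 to 10000 cells a sample. The labels do not give the sex of the pups.

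Mast cells are granulated immune cells that store histamine, serotonin, proteases and heparin-like proteoglycans. They release these stores when IgE bound to FcεRI is cross-linked, and also on neuropeptide, complement and other signals. They arise from blood-forming progenitors and finish their maturation inside the tissue, under the local supply of the Kit ligand. Connective tissue mast cells of the skin lie around vessels, nerves and hair follicles, while mast cells of the brain lie mostly in the meninges and along blood vessels.

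The measurements are counts per transcript, and the deposited rows carry Ensembl transcript identifiers without gene names. None of the 47357 rat genes in the table used here came with an Ensembl identifier (0 matched). Transcripts are therefore described by their levels and by where else they were found. No marker gene of mast cells or of another cell type could therefore be looked up, and the purity of either sort was not tested. Mast cells below means the sorted cells. In bulk libraries, fewer cells of a type and less RNA per cell cannot be told apart.

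The 2 hypothalamus libraries were smaller and less alike than the skin libraries. Total counts were 5495252 and 5607810 in hypothalamus and ran from 11704985 to 26394623 in skin. With every library thinned to 5495201 counts, 15823 and 13153 transcripts had a count in hypothalamus replicates 1 and 2, against 16060 to 17030 in skin. The groups did not overlap, with means of 14488 ± 1888 (SD, n = 2) and 16563 ± 466 (SD, n = 5), and the exact two-sided permutation test gave p = 0.0952, the smallest that 2 against 5 libraries allow (adjusted p = 0.286 over 3 such tests). The most abundant transcript took 6.90% of the counts in hypothalamus replicate 1 (95% Wilson interval 6.87 to 6.92%) and 16.6% in replicate 2 (16.6 to 16.7%). Across transcripts, log2 levels of the 2 hypothalamus libraries correlated at 0.821, which is below the correlation of each of them with each skin library (0.832 to 0.862 over 10 pairs) and below that among skin libraries (0.924 to 0.966 over 10 pairs). These are correlations over transcripts, which are not independent replicates. The number of libraries, 2, limits every result on hypothalamus given here.

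Hypothalamic mast cells differed from skin mast cells in 2688 of the 20521 transcripts tested, 13.1% of them, at an adjusted p below 0.05 in edgeR's quasi-likelihood test. Higher levels in hypothalamus were found for 1235 transcripts (6.02% of those tested) and lower levels for 1453 (7.08%). The median log2 fold change was 2.23 for the higher calls, -1.49 for the lower calls and -0.11 over all transcripts tested. Calls of at least 4-fold numbered 1231 (6% of the transcripts tested), 651 of them higher (3.17%) and 580 lower (2.83%). These made up 52.7% of the higher and 39.9% of the lower calls, but the order of the directions depended on the fit: DESeq2 put 694 of its 1716 higher and 842 of its 2025 lower calls at 4-fold or more, and the fit without hypothalamus replicate 1 put 576 of 1382 and 1474 of 2694 there. At the far end, 88 higher and 181 lower transcripts had fitted log2 changes of 8 or more in size. Of all calls, 97 higher transcripts had 0 counts in all skin libraries and 313 lower ones in both hypothalamus libraries. For these the fitted size depends on a prior count. Among all 20521 transcripts tested, 1086 had 0 counts in all skin libraries and 4191 in both hypothalamus libraries. Over single libraries, 1012 of the 1235 higher transcripts lay above every skin library in both hypothalamus libraries, and 1440 of the 1453 lower ones lay below every skin library in both. The same held, with no test applied, for 9.39% of all tested transcripts in the upward and 17.2% in the downward direction.

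**Figure D1:**
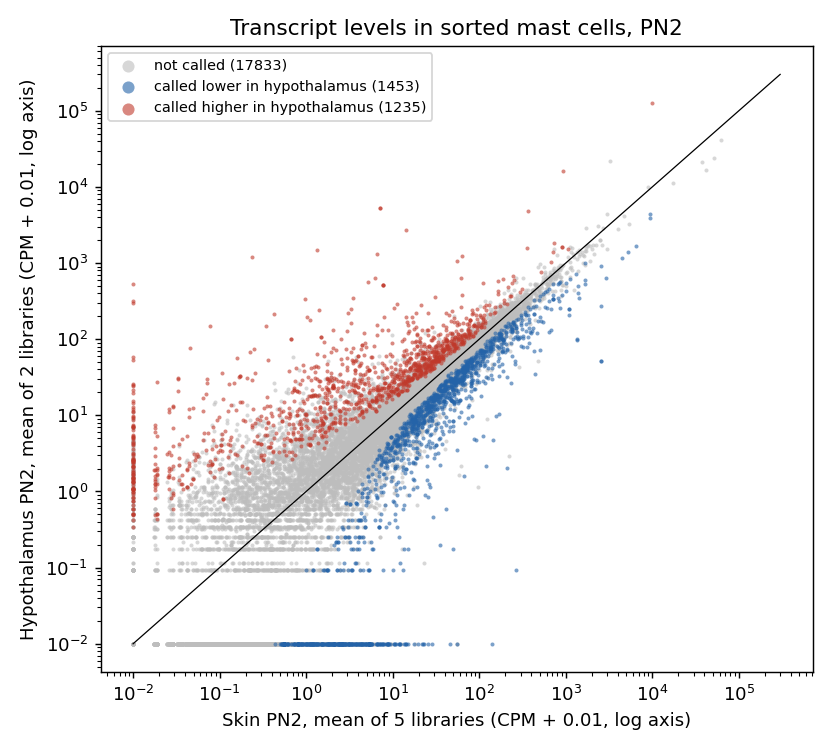
Mean level of each of the 20521 tested transcripts in skin (x, mean of 5 libraries) and hypothalamus (y, mean of 2 libraries) at PN2, in CPM (counts scaled to library size) plus 0.01 on log axes, where the line marks equal levels. The 1235 transcripts called higher (red) and the 1453 called lower (blue) leave the diagonal at every level, and the most abundant hypothalamus transcript is the red point at the upper right.

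Levels below are CPM of the TMM-scaled library total, a scale for comparing 1 transcript between libraries and not transcripts with one another, since longer transcripts collect more reads. Among transcripts that averaged 10 CPM or more in the tissue where they were higher, with no overlap between libraries, 813 were called higher and 987 called lower. The median size of their log2 fold changes was 1.47 and 1.11. At any level and with no test applied, 1927 of all 20521 tested transcripts lay above every skin library and 3539 below. How many of those averaged 10 CPM or more is not given here. The 2 largest fitted changes in each direction are described here by identifier, and all 4 are transcripts with 0 counts in every library of the other tissue. For such transcripts the fitted fold depends on a prior count, so a lower bound is given, computed as if that group had 3 counts in all its libraries together. These 0s are also 0 before rounding. Each of the 4 had a fractional value in 1 to 5 of the 7 libraries, so some of their reads were divided between transcripts by the authors' counting.

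ENSRNOT00000038068.5 held 1011 CPM in hypothalamus replicate 1 and 39.4 CPM in replicate 2, and 0 counts in all 5 skin libraries. Both hypothalamus libraries lay above skin, and they differed widely from each other. The mean of 525 ± 687 CPM (SD, n = 2) was at least 18961-fold higher than in skin (adjusted p = 0.00404, edgeR), a bound of 1422-fold without replicate 1 and 36500-fold without replicate 2. Outside the comparison it held 18.5 to 52.1 CPM in the 4 hippocampus libraries of PN2, at most 4.54 CPM in bone marrow and 5.09 CPM in the lone hypothalamus library of PN7. The hippocampus libraries of PN7 were uneven, at 0 counts in 2 and 149.5 CPM in the third. Hypothalamus replicate 2 thus fell inside the hippocampus range of PN2, and replicate 1 lay above every hippocampus library.

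ENSRNOT00000028347.3 held 442 and 202 CPM in the 2 hypothalamus libraries and 0 counts in every skin library. The mean of 322 ± 170 CPM (SD, n = 2) was at least 11622-fold higher than in skin (adjusted p = 5.25e-07, edgeR). The bound was 7291-fold without replicate 1 and 15953-fold without replicate 2. The hypothalamus library of PN7 held 694 CPM, above both PN2 libraries, whereas hippocampus at PN2 held 1.52 to 2.84 CPM and bone marrow 1.67 to 3.33 CPM. Hippocampus at PN7 lay between, at 8.57 to 52.9 CPM, so all 3 hypothalamus libraries stood above all 16 others.

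ENSRNOT00000075775.2 went the other way, with 114 to 194 CPM in skin and 0 counts in both hypothalamus libraries of PN2. The skin mean of 140 ± 31.0 CPM (SD, n = 5) puts hypothalamus at least 511-fold lower (adjusted p = 0.0248, edgeR). With 1 hypothalamus library only, the bound was 225-fold without replicate 1 and 285-fold without replicate 2, and the call was lost in both fits (adjusted p = 0.0808 and 0.0901, edgeR). It was also lost with limma voom (adjusted p = 0.0842) and without the libraries numbered 4 and 5 (adjusted p = 0.0600, edgeR). The hypothalamus library of PN7 held 12.5 CPM, unlike both of PN2. Levels were uneven elsewhere too: 66.9 to 88.8 CPM in hippocampus at PN2, 0 counts in bone marrow, and in hippocampus at PN7 44.8 CPM in 1 library with 0 counts in the other 2.

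ENSRNOT00000001943.8 held 29.9, 55.0, 43.8, 63.1 and 85.1 CPM in skin replicates 1 to 5 and 0 counts in both hypothalamus libraries. Hypothalamus was at least 202-fold lower than the skin mean of 55.4 ± 20.8 CPM (SD, n = 5; adjusted p = 0.000148, edgeR), with bounds of 89.1-fold and 113-fold without replicate 1 or 2. The hypothalamus library of PN7 also had 0 counts of it. Hippocampus at PN2 held 6.74 to 18.0 CPM and bone marrow 0.776 to 6.86 CPM, both below every skin library. With limma voom the call on this transcript was lost (adjusted p = 0.117).

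**Figure D2:**
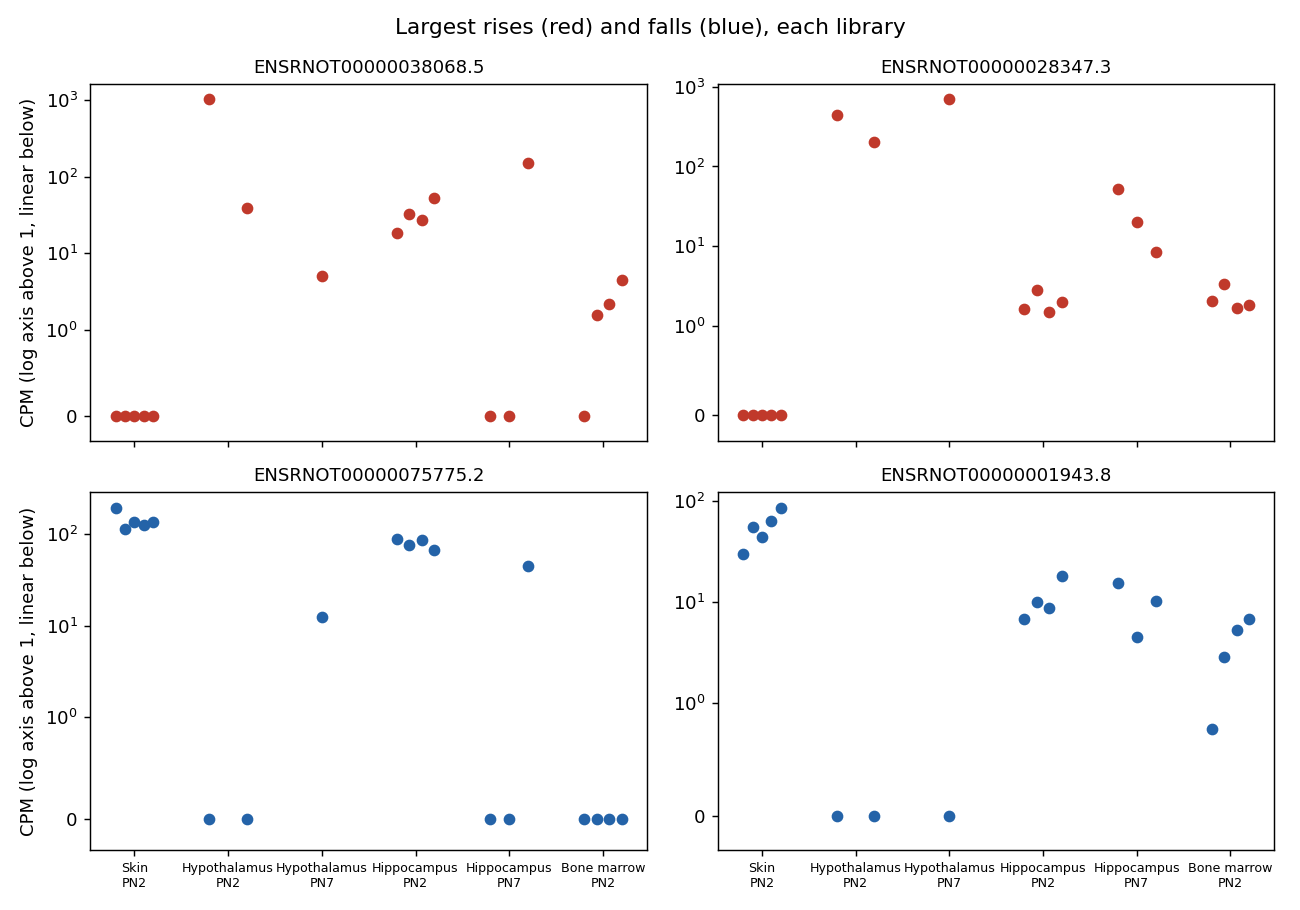
Level in CPM (y, log axis above 1 and linear below) of the 2 transcripts with the largest fitted rises (red) and the 2 with the largest fitted falls (blue), 1 point a library in the 6 groups on the x axis. The red transcripts are at 0 in all 5 skin libraries and the blue ones at 0 in both hypothalamus libraries of PN2, while 2 of the 3 hippocampus libraries of PN7 are at 0 for ENSRNOT00000038068.5 and for ENSRNOT00000075775.2.

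The most abundant transcripts of both tissues were largely the same, and the comparison changed their order. Of the 20 with the highest mean level in hypothalamus, 15 were also among the 20 highest in skin (transcripts with identical values counted once). In the hypothalamus set 4 were called higher and 2 lower, and in the skin set 1 was called higher and 6 lower. Ranking used the same levels as the test, so each set favours calls toward its own tissue. Of the 75 transcripts that averaged above 1000 CPM over both tissues, 33.3% were called, 11 higher and 14 lower. The first in skin, ENSRNOT00000014970.7, was the second in hypothalamus. It held 30615 and 52274 CPM in hypothalamus against 49968 to 76824 CPM in skin, with overlapping libraries and no call (log2 fold change -0.58 ± 0.67 SE, adjusted p = 0.611, edgeR).

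The first transcript in hypothalamus held 62114 CPM in replicate 1 and 193457 CPM in replicate 2, and was only the sixth in skin. The skin libraries held 2901, 9119, 5974, 17853 and 13142 CPM, all below both hypothalamus libraries. Its log2 fold change was 3.71 ± 0.49 (SE; adjusted p = 0.000120, edgeR), and the call was kept without either hypothalamus library, at 4.27 without replicate 1 and 2.66 without replicate 2. The hypothalamus library of PN7 held 51094 CPM, and the other groups averaged 7868 CPM in hippocampus at PN2, 21901 CPM in hippocampus at PN7 and 14483 CPM in bone marrow. All 3 hypothalamus libraries therefore lay above the highest of the 16 others, 30875 CPM. This 1 transcript held 51.9% of the summed hypothalamus level of all 1235 higher transcripts.

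The tenth in hypothalamus had the widest separation of the abundant ones. It held 5536 and 5178 CPM there, and 1.03 to 12.2 CPM in skin. Its log2 fold change was 9.58 ± 0.87 (SE; adjusted p = 2.54e-06, edgeR). A second transcript has identical values in all libraries, so reads of the pair cannot be separated. The hypothalamus library of PN7 held 14937 CPM, hippocampus at PN2 1865 to 2767 CPM and bone marrow 111 to 1068 CPM, so skin was the tissue that stood lowest.

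Of the abundant transcripts that were lower in hypothalamus, the nineteenth in skin held 837 and 423 CPM in hypothalamus against 2372 to 3845 CPM in skin. On the log2 scale the difference was -2.23 ± 0.31 (SE), at an adjusted p of 0.000181 in edgeR. The fourteenth held 730 and 1613 CPM against 3869 to 4983 CPM, or -1.95 ± 0.27 on the log2 scale (SE), at an adjusted p of 0.000198 in edgeR. Both kept their call without any 1 of the 7 libraries. The 10 largest lower transcripts held 30.3% of the summed skin level of their set, against 68.6% for the 10 largest higher ones in hypothalamus.

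Some abundant transcripts followed the replicate number as well as the tissue. ENSRNOT00000066542.4, the fourth in hypothalamus, held 4112 and 40132 CPM there. In skin it held 128, 396 and 159 CPM in replicates 1 to 3, but 8605 and 6929 CPM in replicates 4 and 5, and it was not called (log2 fold change 2.77 ± 1.67 SE, adjusted p = 0.305, edgeR). Without the libraries numbered 4 and 5, of which hypothalamus has none, its log2 fold change was 6.57 (adjusted p = 0.000331, edgeR). The labels do not say what the numbers 4 and 5 share. The seventh and eleventh in hypothalamus had the same split in skin, at 146 to 399 CPM against 1713 and 2240 CPM, and at 103 to 222 CPM against 602 and 753 CPM, and both were called higher in hypothalamus, with log2 fold changes of 4.10 ± 1.05 and 3.75 ± 0.71 (SE; adjusted p = 0.0165 and 0.00224, edgeR). Without the libraries numbered 4 and 5 these were 6.05 and 4.96. The call on the seventh was lost without hypothalamus replicate 2 (adjusted p = 0.0777, edgeR). Of the 869 higher transcripts with at least 1 CPM in skin, 1.61% were at least 2-fold higher in skin replicates 4 and 5 than in 1 to 3. Among all 13999 tested transcripts at that level the share was 4.44%. At least 2-fold lower were 10.7%, against 7.30%. For the 1378 lower transcripts at that level the shares were 3.48% higher and 3.12% lower. The calls rest on the same skin levels, so these shares cannot show how general the split is.

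Few transcripts were well above 0 in every library of 1 tissue and without a count in the other. With at least 10 CPM in every library of a tissue and 0 counts in every library of the other, 5 transcripts were seen in hypothalamus only and 11 in skin only. All 5 of the first and 9 of the second were called. The 2 skin transcripts not called (adjusted p = 0.129 each, edgeR) have identical values in all libraries, so their reads cannot be separated. The depth behind a 0 differs between both: 3 counts correspond to 0.0277 CPM over the 5 skin libraries and 0.275 CPM over the 2 hypothalamus libraries, and such floors cover counting error only. Of the 5 hypothalamus transcripts, 4 had counts in the hypothalamus library of PN7, 2 averaged at least 10 CPM in hippocampus at PN2, and none of the 5 did in bone marrow. Of the 11 skin transcripts, 8 had counts in the hypothalamus library of PN7, 4 averaged at least 10 CPM in hippocampus and 4 in bone marrow. The sixth of the skin set by level held 14.4 to 72.4 CPM in skin, 0 counts in both hypothalamus libraries of PN2 and 1615 CPM in that of PN7. With a single hypothalamus library the sets were larger, at 15 and 140 without replicate 1 and 19 and 28 without replicate 2.

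The 2 hypothalamus libraries were within 2-fold of each other for 58.9% of the 1235 transcripts called higher and 55.5% of the 1453 called lower. The latter share counts the 313 lower transcripts with 0 counts in both libraries as not within 2-fold. Of the 1017 lower transcripts that averaged at least 1 CPM in hypothalamus the share was 77.9%, and of all 14095 tested transcripts at that level it was 56.5%. For 209 of the higher transcripts (16.9%), 1 hypothalamus library held at least 90% of the summed level, replicate 1 in 162 cases and replicate 2 in 47. The share among all tested transcripts of at least 1 CPM was 18.1%. These 209 had a median log2 fold change of 6.22 and a median of 3.54 CPM in hypothalamus. The other 1026 higher transcripts had medians of 1.74 and 35.1 CPM. In the lower set, 313 transcripts (21.5%) had 0 counts in both hypothalamus libraries, 142 in 1 of them, and 998 were counted in both. Among all 20521 tested transcripts, 4191 had 0 counts in both, a share similar to that of the lower set.

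**Figure D3:**
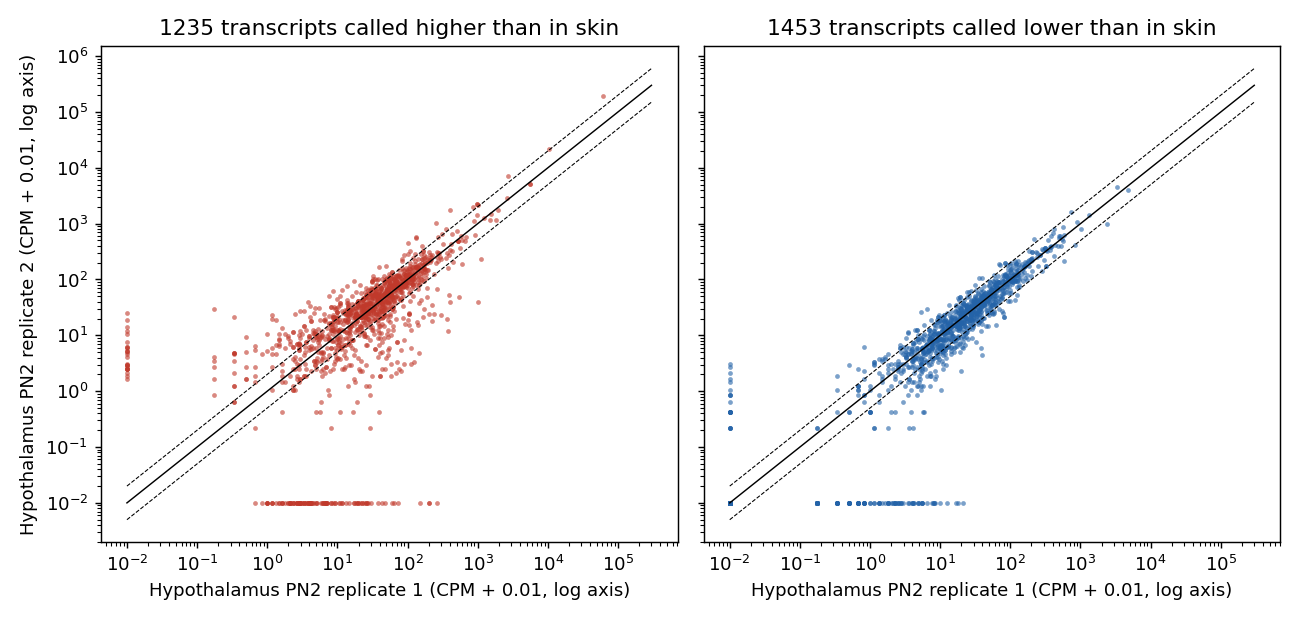
Level of each called transcript in hypothalamus PN2 replicate 1 (x) and replicate 2 (y), in CPM plus 0.01 on log axes, for the 1235 higher (left) and the 1453 lower transcripts (right), with equal levels as a solid line and 2-fold differences as dashed lines. The points along the lower and left edges have 0 counts in 1 library. The libraries are within 2-fold for 58.9% of the red and 55.5% of the blue points. Points with 0 counts in both libraries were not counted as within 2-fold.

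The calls were spread over the range of expression. Among the 6046 tested transcripts that averaged below 1 CPM over both tissues, 4.05% were called, 89 higher and 156 lower. All of these had fitted changes of at least 4-fold. At such levels counts are few, as 3 counts equal 0.492 and 0.622 CPM in the 2 hypothalamus libraries, so the fitted folds are uncertain. The share was 14.7% from 1 to 10 CPM, 17.6% from 10 to 100 CPM, 20.1% from 100 to 1000 CPM and 33.3% of the 75 transcripts above 1000 CPM. From 10 to 100 CPM the directions were balanced, with 671 higher and 675 lower, but 4-fold was reached by 228 that were higher and 93 that were lower. From 100 to 1000 CPM, 109 were higher and 192 lower. Transcripts whose reads were not shared with another, judged by whole numbers in all 7 libraries, made up 59.8% of the higher, 54.6% of the lower and 52.7% of all tested transcripts.

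Summed over each library, the higher transcripts held 19% and 27.6% of the counts of the 2 hypothalamus libraries and 2.95 to 4.86% of those of the skin libraries. In CPM the sums were 171110 and 321137 in hypothalamus. Without the most abundant transcript they were 108996 and 127680 CPM in hypothalamus and 29460 to 30571 CPM in skin. The lower transcripts summed to 62809 and 64509 CPM in hypothalamus and to 151445 to 178580 CPM in skin. These sums describe the sets and carry no test, because the same levels chose the transcripts.

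The other 4 groups show where else these transcripts were found; their libraries are not in the contrast but entered the filter and the estimate of the spread. The median of the 1235 higher transcripts was 27.9 and 25.3 CPM in the 2 hypothalamus libraries and 4.31 to 5.45 CPM in skin. In the hypothalamus library of PN7 it was 24.4 CPM, close to the PN2 libraries. It was 10.8 to 12.6 CPM in hippocampus at PN2, 11.6 to 13.1 CPM in hippocampus at PN7 and 11.7 to 12.6 CPM in bone marrow, so every library outside skin lay above every skin library. The median of the 1453 lower transcripts was 23.2 to 25.6 CPM in skin and 9.18 and 7.67 CPM in hypothalamus. The other groups lay between, at 13 CPM in the hypothalamus library of PN7, 16.1 to 16.8 CPM in hippocampus at PN2, 16.8 to 17.0 CPM in hippocampus at PN7 and 12.6 to 14.3 CPM in bone marrow. Medians over all tested transcripts were closer together, at 6.72 and 5.18 CPM in hypothalamus replicates 1 and 2 and 5.91 to 6.10 CPM in skin. The value of replicate 2 was the lowest of all libraries, and that of the PN7 hypothalamus library was 7.63 CPM. Group means gave medians of 6.24 CPM in skin and 6.67 CPM in hypothalamus at PN2. Transcripts chosen for a difference between 2 groups tend to lie between them elsewhere, and no test was made of these medians.

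**Figure D4:**
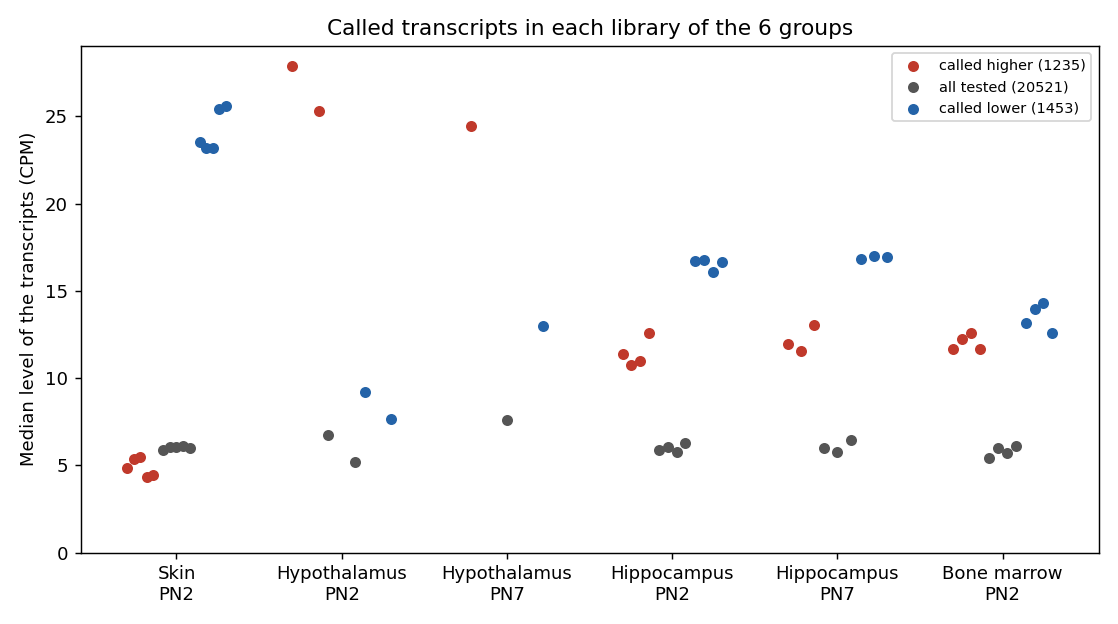
Median level in CPM (y, from 0) of the transcripts called higher (red, 1235), called lower (blue, 1453) and all tested (grey, 20521), 1 point a library, in the 6 groups (x). The red points of the hypothalamus library of PN7 and of both PN2 libraries lie at 24.4 to 27.9, while those of skin lie at 4.31 to 5.45 and those of hippocampus and bone marrow between.

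By single transcripts, 907 of the 1235 higher ones (73.4%) reached at least 50% of their PN2 hypothalamus level in the PN7 library of that tissue. In bone marrow 607 did so, in hippocampus at PN2 588 and in hippocampus at PN7 607. Among all tested transcripts of at least 1 CPM in hypothalamus the shares were 82.7%, 75.1%, 83.3% and 81.1% in the same order. The higher set was nearest to this background in the PN7 hypothalamus library, and stood at 49.1%, 47.6% and 49.1% in the other groups. The 2 hypothalamus libraries of PN2 set the reference level, so a level raised in 1 pool alone lowers all 4 shares. In all, 130 of the higher transcripts (10.5%) reached that level in none of these 4 groups, against 4.10% of the background. Of the 1453 lower transcripts, 1146 (78.9%) reached 50% of their skin level in hippocampus at PN2, 885 (60.9%) in bone marrow and 772 (53.1%) in the hypothalamus library of PN7, against 90.9%, 78.4% and 80.5% of all tested transcripts of at least 1 CPM in skin.

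Sorted by that 50% level, the higher transcripts fell into 4 sets of different size and fold. The 370 that reached it in both bone marrow and hippocampus at PN2 (30% of the higher set, 70.3% of the background) had a median log2 fold change of 0.92. Their median levels were 49.6 CPM in hypothalamus, 48.6 CPM in bone marrow, 38.8 CPM in hippocampus and, lowest of the PN2 tissues, 26.3 CPM in skin. The 237 that reached it in bone marrow but not in hippocampus had a median log2 fold change of 3.07, and bone marrow was the tissue with the most of them. Median levels were 23.6 CPM there, 18.0 CPM in hypothalamus, 3.27 CPM in hippocampus and 1.86 CPM in skin. They made up 19.2% of the higher transcripts and 4.88% of the background. The 218 that reached it in hippocampus but not in bone marrow (17.7%, background 13%) had a median log2 fold change of 1.76, with medians of 34.1 CPM in hypothalamus, 27.2 CPM in hippocampus, 10.4 CPM in skin and 7.36 CPM in bone marrow.

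The remaining 410 reached it in neither tissue (33.2%, background 11.8%) and had the highest folds, with a median log2 fold change of 4.26 and 345 of them at 4-fold or more. Their median was 16.3 CPM in hypothalamus at PN2 and 12.4 CPM in its PN7 library. Hippocampus at PN2 held 2.25 CPM, skin 1.08 CPM and bone marrow 1.04 CPM. In 257 of them the PN7 library held at least 50% of the PN2 level. In 134 of the 410, however, 1 of the PN2 hypothalamus libraries held at least 90% of the sum, against 9 of the 370 shared with bone marrow and hippocampus. The most abundant hypothalamus transcript belongs here and held 72.0% of the summed level of the set.

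In 800 of the 1453 lower transcripts (55.1%, background 75.8%), bone marrow and hippocampus at PN2 both reached 50% of the skin level, with a median log2 fold change of -1.16 and medians of 10.8 CPM in hypothalamus against 24.5 CPM in skin, 22.9 CPM in bone marrow and 20.6 CPM in hippocampus. In 346 (23.8%, background 15.1%) hippocampus did and bone marrow did not, and the medians were 12 CPM in hypothalamus, 32.5 CPM in skin, 25.7 CPM in hippocampus and 7.87 CPM in bone marrow. In 222 (15.3%, background 6.53%) neither did, so that skin stood highest of the PN2 tissues. The medians were 31.1 CPM in skin, 6.12 CPM in hippocampus, 3.10 CPM in hypothalamus and 1.88 CPM in bone marrow. The 85 shared by skin and bone marrow but not hippocampus were weak, at a median of 5.37 CPM in skin and 0.0820 CPM in hypothalamus.

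Leaving out a hypothalamus library changed more of the calls than leaving out a skin library. The former removes 1 of 2 libraries and the latter 1 of 5, so the 2 cannot be compared as such. Leaving out skin replicates 1 to 5 in turn gave 2451, 2218, 2271, 2194 and 2178 calls (12%, 10.9%, 11.1%, 10.8% and 10.7% of those tested), and 1946 of the 2688 calls were kept in all 5 such fits. Without hypothalamus replicate 2, 2720 were called (13.3%), 1281 higher (6.25%) and 1439 lower (7.02%). Without replicate 1, 4076 were called (20%), 1382 higher (6.77%) and 2694 lower (13.2%), and the median log2 fold change over all transcripts was -0.49. With 1 hypothalamus library left, its spread is taken to be that of the other groups. In every fit without 1 of the 7 libraries, 1052 of the 2688 calls were kept, 456 higher (36.9% of the higher calls) and 596 lower (41.0% of the lower calls). Of these, 293 higher and 288 lower ones differed by at least 4-fold. The calls carried by 1 hypothalamus library were mostly gone (8 of the 209 kept), which the way these 1052 were chosen brings about. The 456 had medians of 38.0 and 36.6 CPM in the 2 hypothalamus libraries, 43.9 CPM in that of PN7 and 3.52 to 5.13 CPM in skin. In 388 of them (85.1% of 456) the PN7 library held at least 50% of the PN2 level, near the 82.7% of all tested transcripts of at least 1 CPM.

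The sets by tissue had similar shares among the calls kept. Of the 456 higher transcripts, 153 (33.6%) reached the 50% level in neither bone marrow nor hippocampus at PN2, 109 in both, 108 in bone marrow alone and 86 in hippocampus alone. Of the 596 lower ones, 302 (50.7%) reached it in both and 116 (19.5%) in neither. Fits of other kinds called different numbers and balances, and limma voom, which gave both hypothalamus libraries low weights (0.469 and 0.429), called 598 (2.91%), 460 higher (2.24%) and 138 lower (0.672%). With only the 7 libraries of both groups, 1673 were called (10.1%), 707 higher (4.29%) and 966 lower (5.86%), and 1466 of the 2688 calls were kept. That fit tested 16493 transcripts, and a call on a transcript it did not test counted as not kept.

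**Figure D5:**
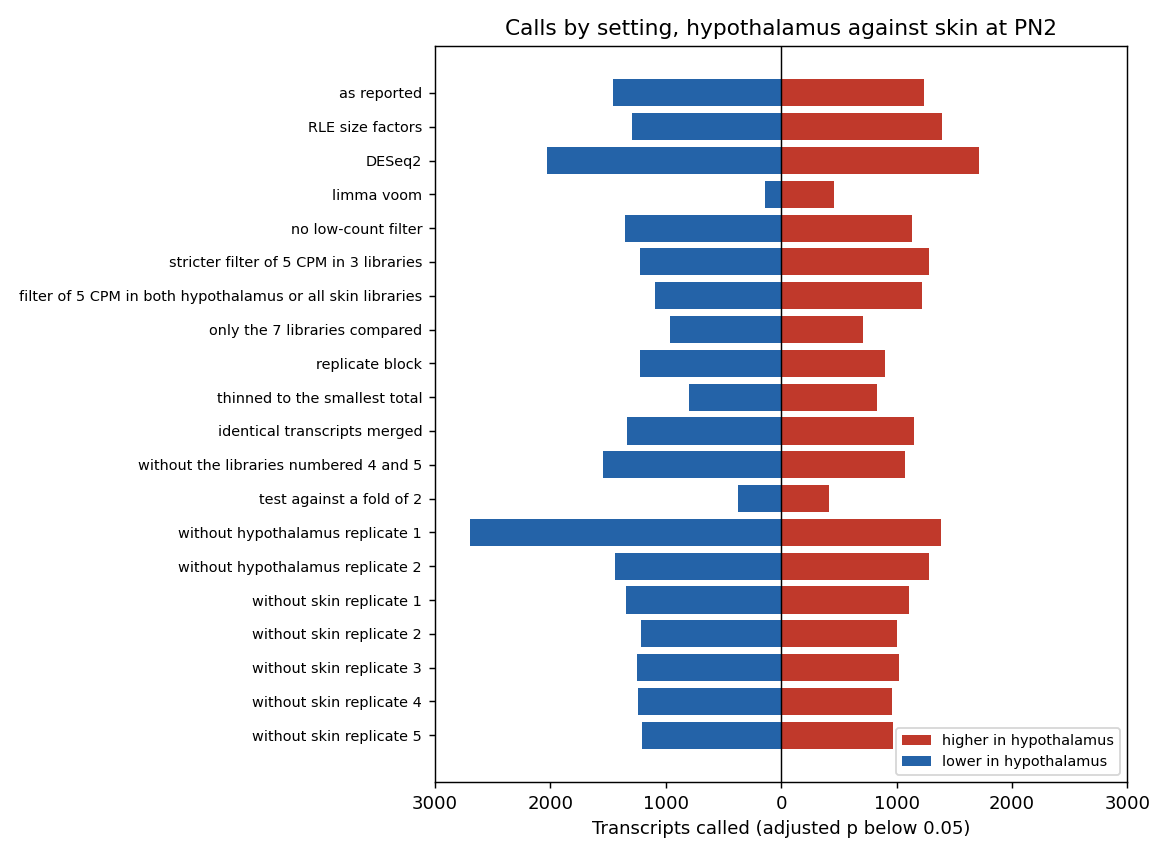
Number of transcripts called higher (red, to the right) and lower (blue, to the left) in hypothalamus at an adjusted p below 0.05, 1 bar a setting, with the reported fit at the top. The balance tips to lower calls without hypothalamus replicate 1 (1382 against 2694) and to higher calls with limma voom (460 against 138).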

How the data were processed

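Per the labels' protocols, cDNA came from the SMART-Seq v4 kit and libraries from Nextera XT, which amplify by PCR without molecular identifiers, so intervals and floors cover counting error only. The authors deposited estimated counts per transcript, not normalized between libraries; kallisto and the rat build Rnor_6.0 are named in the submitters' processing notes, without version or settings. Counts were rounded and tested with edgeR 4.0.16 (R 4.3.3): filterByExpr over the 6 groups kept 20521 of 29107 transcripts (2245 with values identical to another), TMM scaling, 1 robust quasi-likelihood fit of all 19 libraries, Benjamini-Hochberg over all transcripts, calls below 0.05. The SE is the log2 fold change divided by the square root of F. Correlations were taken on log2 CPM (prior count 2). Values within 1e-06 of a whole number count as whole. Single library measures were compared by exact permutation (SciPy 1.17.1); figures used matplotlib 3.10.9.

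The members and lists were chosen with earlier results of these data known. Named transcripts are the 2 largest fitted changes each way with adjusted p below 0.05, at least 10 CPM in the higher tissue and no overlap of libraries; transcripts described by abundance rank, the 50% level and the 90% share were chosen after values were seen. The 22 gene lists (257 genes) written for named transcripts could not be matched and were not used. Alternatives were RLE factors, DESeq2 1.42.0, voom of limma 3.58.1 (sample weights), 3 other filters, the 7 libraries alone, a replicate block, thinning, merging identical transcripts, leaving out libraries and a test against a fold of 2.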

Additional observations from a re-analysis of the deposited data

Results flagged for a closer look

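In 4 of 40 checks, each of 1 measure in 1 group of 4 or 5 libraries, 1 library lay far from the others relative to their range. Chance flags about 5% of independent checks. Most of these checks used the same 5 skin libraries and are not independent, so the 4 cannot be set against that share. All 4 are skin replicate 1, the skin library with the fewest counts, at the high end. It held 178580 CPM of the lower transcripts in sum, against at most 155372 CPM in the other skin libraries. It held 194 CPM of ENSRNOT00000075775.2, against 114 to 135 CPM. The seventh most abundant transcript of skin (the thirteenth of hypothalamus) stood at 13378 CPM there, and the tenth of skin at 10148 CPM. All of these transcripts were called lower in hypothalamus and so are part of that sum. Without skin replicate 1, 2451 transcripts were called, 1107 higher and 1344 lower.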

How the results depend on the processing

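In the alternatives that gave them an adjusted p, none of the 4 transcripts named for their largest changes turned direction. DESeq2 gave no adjusted p for ENSRNOT00000038068.5 and ENSRNOT00000075775.2. With limma voom 598 were called (2.91% of those tested), 460 higher, 138 lower and 407 of at least 4-fold. With only the 7 libraries compared the number was 1673 (10.1%), with 707, 966 and 808 in the same order. Thinning all libraries to the depth of the smallest gave 1627 (9.04%), with 830, 797 and 809. The test against a fold of 2 gave 789 (3.84%), with 413, 376 and 724. At least 4-fold were 809 of the 12760 tested with a filter of 5 CPM in 3 libraries. With 5 CPM in both hypothalamus or all skin libraries they were 541 of 10354. In the reported fit they were 1231 of 20521. Leaving out 1 library in turn gave 2178 to 4076 calls, 957 to 1382 higher, 1205 to 2694 lower and 1006 to 2050 of at least 4-fold. Transcripts seen in hypothalamus only were 10 at a floor of 5 CPM and 11 after thinning, and 5 to 19 with 1 library left out; those in skin only were 26 at 5 CPM, 2 at 20 CPM and 11 to 140. ENSRNOT00000010171.4, abundant in both tissues and not called, had a log2 fold change of 0.13, of -0.35 without hypothalamus replicate 2 and of 0.46 without replicate 1. Of the 2688 calls, 2566 were kept with DESeq2, 2528 with RLE factors, 1570 after thinning and 2053 without the libraries numbered 4 and 5, and 390 in 17 alternatives together (all but merged transcripts and the test against a fold of 2); 3 were called in the opposite direction without hypothalamus replicate 1. A call counted as not kept, here and above, also where an alternative did not test the transcript or gave it no adjusted p. With the replicate block, 2123 were called, 10.3% of those tested (899 higher, 1224 lower). The call on ENSRNOT00000075775.2 (adjusted p = 0.0661, edgeR) was lost and that on ENSRNOT00000066542.4 gained (log2 fold change 6.06, adjusted p = 5.13e-05, edgeR). No other call changed among the named and most abundant transcripts. Same-numbered libraries of both tissues correlated in their deviations from the group mean at 0.121 and -0.0284. The deviations of 2 hypothalamus libraries mirror each other, so these values cannot show or exclude pairing. The numbers were not taken as pairs because the labels do not say that they pair samples. Counts summed to genes were not run, as identifiers could not be paired with genes. The 2 shallow hypothalamus libraries limit what a 0 there shows.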

Other observations

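The split by replicate number in 3 of the most abundant hypothalamus transcripts also appeared in tissues outside the comparison. ENSRNOT00000066542.4 held 8304 CPM in bone marrow replicate 4 against 272 to 325 CPM in the other 3 bone marrow libraries, and 7180 CPM in hippocampus PN2 replicate 4 against 194 to 417 CPM in the other 3. The seventh in hypothalamus held 2091 CPM in bone marrow replicate 4 against 356 to 441 CPM, and 1911 CPM in hippocampus replicate 4 against 199 to 219 CPM. The eleventh held 734 CPM against 239 to 265 CPM, and 611 CPM against 154 to 158 CPM, in the same order. In hypothalamus, replicate 2 held more of all 3 than replicate 1. Other abundant transcripts were lower in libraries numbered 4 or 5. The tenth held 1.03 and 1.58 CPM in skin replicates 4 and 5, against 9.95 to 12.2 CPM in replicates 1 to 3. In bone marrow it held 111 CPM in replicate 4 against 777 to 1068 CPM, but in hippocampus at PN2 2767 CPM against 1865 to 2242 CPM. ENSRNOT00000020108.5 held 933 and 943 CPM against 2126 to 2253 CPM in skin, and 212 CPM against 915 to 957 CPM in bone marrow. What sets these libraries apart was not tested.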
